A study of Homo sapiens with 9 samples.

Results

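The TFAP2 family encodes the AP-2 transcription factors, and its 5 genes (TFAP2A, TFAP2B, TFAP2C, TFAP2D and TFAP2E) were followed through the loss of another crest regulator, SOX9. The genes were taken by name, and all 5 were found among the 18970 gene symbols counted. AP-2 proteins bind GC-rich DNA as dimers, through a helix-span-helix motif, and partner with CITED coactivators. TFAP2A and TFAP2B are early specifiers of the neural crest, the migratory embryonic cells that build most of the facial skeleton, and mutations in them cause branchio-oculo-facial syndrome and Char syndrome, respectively. TFAP2C is best known from trophoblast, germ cells and mammary epithelium.

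The cells were cranial neural crest cells (CNCCs) differentiated in culture from H9, an established line of human embryonic stem cells. In every group both SOX9 alleles carried the FKBP12-F36V degron together with mNeonGreen and V5, and no untagged cells were analysed here. The degrader dTAGV-1 at 500 nM removed the tagged protein in the 3h and 24h groups, whereas the 0h group received none. By the authors' methods the labelling medium held either DMSO or dTAGV-1, according to condition. The labels put SOX9 at 100% at 0h and at 0% at 3h and 24h. The 3 times were thus compared in 3 libraries each, and each time held the same cultures, S9CC13_R6, S9CC47_R5 and S9CC47_R6, which combine 2 clones (S9CC13, S9CC47) with 2 differentiation batches (R5, R6). For SLAM-seq, all cells took up 4-thiouridine (4sU, 100 uM) during the last 2 h, and alkylated 4sU is read as a T>C conversion. Reads with a conversion (T>C reads) follow RNA made during labelling, and total reads follow all RNA of a gene. Libraries held 16955633 to 28782678 total reads and 3130673 to 5475800 T>C reads. With a few cultures per time, p-values measure the spread between these cultures, and fewer expressing cells cannot be told apart from less RNA per cell.

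Markers of cranial crest were detected, although FOXD3, SOX10, DLX5 and DLX6, other crest factors, did not pass the filter used for testing. All 8 crest markers examined (TWIST1, NR2F1, NR2F2, PDGFRA, NGFR, VIM, SOX9 and ALX1) had a median of at least 1 CPM (reads scaled to the total of the library). Their sum grew from 3511 to 3616 CPM at 0h over 3796 to 4200 at 3h to 4596 to 4996 at 24h. This sum includes SOX9, whose own RNA rose. Without SOX9 the 7 others summed to 2733 to 2880 CPM at 0h, 2655 to 2785 at 3h and 2981 to 3211 at 24h, so the higher sum at 3h came from SOX9. TFAP2 genes are also active in surface ectoderm, and the 8 epithelial markers summed to 2.10 to 5.16 CPM over all libraries. KRT14 had 0 reads and TP63 and CDH1 had 0 to 4, whereas KRT18 reached 2.96 CPM and KRT8 1.45. GATA3 had a mean of 0.338 CPM at 0h, 0.604 at 3h and 0.996 at 24h. Melanocyte markers (5 genes) summed to 2.07 to 3.71 CPM, with TYR at 0 and MITF and PMEL at medians of 1.32 and 1.47. Neural progenitor markers (4 genes) summed to 0.842 to 2.13 CPM, with SOX1 at 0. Among them LHX2 had a mean of 0.210 CPM at 0h, 0.740 at 3h and 1.09 at 24h. Of 4 pluripotency genes, POU5F1 and NANOG had 0 to 4 reads in a library, whereas LIN28A had a mean of 337 CPM at 0h, 289 at 3h and 255 at 24h, and DPPA4 had 34.2 to 44.6 CPM. The sum of these 4 genes was 350 to 414 CPM at 0h, 304 to 349 at 3h and 281 to 306 at 24h, lower with time while TFAP2A was higher, and its part in the TFAP2A result was not tested.

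TFAP2A, TFAP2B and TFAP2D lie on chromosome 6 (hg38). TFAP2A (ENSG00000137203) spans chr6:10393186-10419659 on the minus strand, and TFAP2B (ENSG00000008196) spans chr6:50818723-50847619 on the plus strand. TFAP2D (ENSG00000008197, chr6:50713526-50773033, plus strand) ends 45690 bases before TFAP2B. TFAP2C (ENSG00000087510) lies at chr20:56629306-56639283 and TFAP2E (ENSG00000116819) at chr1:35573314-35595328, both on the plus strand. The antisense lncRNAs TFAP2A-AS1, TFAP2A-AS2 and TFAP2E-AS1 overlap their namesakes but not the last exon, where 3′ end libraries are read, and none of them was a row of the count tables.

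Because TFAP2A and TFAP2B were the members that changed, the 250 bases upstream of their RefSeq starts are shown (GRCh38.p14, gene strand, 5′ to 3′). Both strands were searched for the palindromic AP-2 site GCCNNNGGC and for the SOX core ACAAT, and capitals mark a match.
TFAP2A, chr6:10419660-10419909, minus strand: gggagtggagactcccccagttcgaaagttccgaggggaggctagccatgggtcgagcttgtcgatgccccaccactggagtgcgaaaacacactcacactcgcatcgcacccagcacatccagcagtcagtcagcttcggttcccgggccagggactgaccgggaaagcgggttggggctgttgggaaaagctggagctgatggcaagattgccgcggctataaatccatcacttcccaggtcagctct
TFAP2A, chr6:10412392-10412641, minus strand: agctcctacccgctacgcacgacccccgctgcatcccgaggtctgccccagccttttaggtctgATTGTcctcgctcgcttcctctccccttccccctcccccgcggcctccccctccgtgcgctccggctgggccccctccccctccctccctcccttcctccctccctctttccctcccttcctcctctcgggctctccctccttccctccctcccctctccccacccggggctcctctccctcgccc
TFAP2B, chr6:50818621-50818870, plus strand: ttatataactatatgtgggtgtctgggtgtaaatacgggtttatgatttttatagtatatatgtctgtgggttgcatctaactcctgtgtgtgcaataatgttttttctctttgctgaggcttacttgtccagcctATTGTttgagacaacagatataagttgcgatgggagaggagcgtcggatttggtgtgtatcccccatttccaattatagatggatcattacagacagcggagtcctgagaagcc
The AP-2 site had no match in these windows, nor in those of TFAP2D and TFAP2E, whereas 19.8% of the 35116 RefSeq promoter windows of this length held it. The SOX core was found at position -186 from the start of the second TFAP2A window and at position -114 from that of TFAP2B, and also in the window of TFAP2D. The second TFAP2A window and the end of the TFAP2B window lie inside the gene spans given above. So do the matches in these windows. The SOX core occurs in 24.6% of all windows, and a match of these letters is not a binding site. The upstream windows differed in base composition, with a GC content of 59.6% and 71.2% for TFAP2A and of 40.8% for TFAP2B.

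The family was expressed at very unequal levels. Over all 9 libraries TFAP2B collected 122682 total reads and TFAP2A 61068, against 226 for TFAP2C, 37 for TFAP2E and 1 for TFAP2D. The same order held in T>C reads, with 42541, 31977, 139, 13 and 0. Each 3′ end read stands for 1 end of a transcript, so these counts were not divided by length. TFAP2A, TFAP2B and TFAP2C, 3 of the 5, passed the filter of 1 CPM in at least 3 libraries and were tested for each kind of read. TFAP2D had its only read in the library S9CC13_R6 at 3h and no T>C read, and a library in which it had 0 reads allows at most 3 by counting error. TFAP2E had 0 to 10 total reads and 0 to 3 T>C reads in a library.

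TFAP2A rose in newly made RNA after SOX9 was removed, most firmly by 24h. Its normalized T>C reads (divided by the DESeq2 size factor of the library) were 2434, 2729 and 2599 at 0h, where cultures come in the order S9CC13_R6, S9CC47_R5, S9CC47_R6 here and below. They were 2901, 3065 and 3329 at 3h, and 3794, 4014 and 5572 at 24h. The 3 times did not overlap, and S9CC47_R6 at 24h was the highest library. Means were 2587 ± 148 (SD, n = 3), 3099 ± 216 and 4460 ± 970. Within cultures the 24h level was 1.56, 1.47 and 2.14 times that at 0h.

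TFAP2A also rose in total RNA. Its normalized total reads were 4810, 5338 and 5336 at 0h, 6066, 5944 and 6492 at 3h, and 7227, 7652 and 10522 at 24h. The times were again separate in all libraries. The ratio of 24h to 0h within cultures was lowest in S9CC47_R5 (1.43) and highest in S9CC47_R6 (1.97).

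TFAP2B started at a higher read count and moved less. Its normalized T>C reads were 4223, 4004 and 4538 at 0h and 4265, 4093 and 4467 at 3h, 2 sets that overlapped throughout. At 24h they were 5229, 4796 and 5415, above every library of the earlier times. Means were 4255 ± 269 (SD, n = 3), 4275 ± 187 and 5147 ± 318, and the 24h level was 1.24, 1.20 and 1.19 times the 0h level in the 3 cultures. Normalized total reads were 12684, 11240 and 14022 at 0h, 12007, 11906 and 13311 at 3h, and 14497, 13808 and 15993 at 24h. Here the lowest library at 24h was below the highest at 0h.

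TFAP2C was close to the limit of detection. Its T>C reads, as counted, were 14, 26 and 14 at 0h, 4, 29 and 8 at 3h, and 17, 15 and 12 at 24h, and all times overlapped. S9CC47_R5, the culture of batch R5, had the most reads at 0h and 3h.

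**Figure D1:**
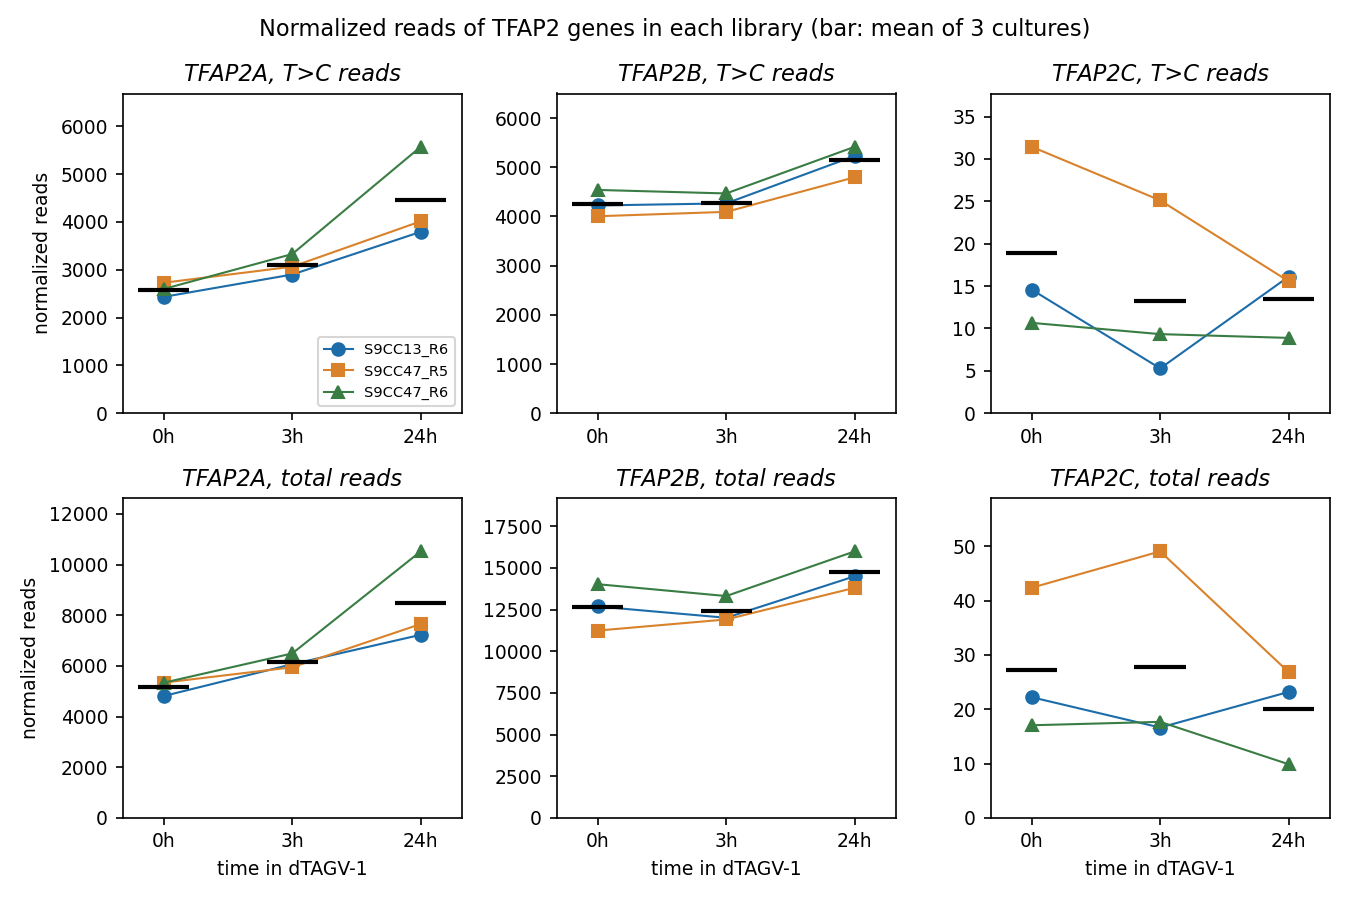
Normalized reads (y axis, from 0) of TFAP2A, TFAP2B and TFAP2C against time in dTAGV-1 (x axis), with T>C reads above and total reads below. Symbols and lines follow the 3 cultures and black bars are means: TFAP2A climbs from a mean of 2587 to 4460 T>C reads and TFAP2B from 4255 to 5147, while TFAP2C stays under 50 normalized reads in every library.

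Between 0h and 3h, 1 of the 3 tested members was called in T>C reads, TFAP2A, which was higher by 0.32 ± 0.0987 on the log2 scale (± SE here and below, adjusted p = 0.0737 from DESeq2). Calls were made at an adjusted p under 0.1. Of all genes tested 1.79% were called, and 1.01% of all genes tested were called higher. The change was alike in total reads (0.31 ± 0.0958, adjusted p = 0.0810), where 1.89% of genes were called and 1.11% were higher. In T>C reads every culture moved up, by at most 1.28 times (S9CC47_R6). Most other treatments of the data ended these calls, which were kept in 7 of 24 alternatives for T>C reads and in 7 of 23 for total reads. With the culture as a block the log2 fold change of T>C reads was 0.26 (adjusted p = 0.600) and that of total reads 0.26 (adjusted p = 0.722). Leaving out any of the 3 cultures ended each call. TFAP2B had a log2 fold change of 0.02 in T>C reads at 3h (95% interval, -0.12 to 0.16, adjusted p = 0.998) and of -0.01 in total reads (-0.16 to 0.14, adjusted p = 0.999). TFAP2C gave -0.52 in T>C reads, with a wide interval of -1.72 to 0.68.

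Between 0h and 24h, TFAP2A and TFAP2B were both called in T>C reads. TFAP2A changed by 0.67 ± 0.103 on the log2 scale (adjusted p = 1.69e-08) and TFAP2B by 0.25 ± 0.0725 (adjusted p = 0.0187). Among all genes 4.98% were called at 24h, and 2.38% were called higher. This share moved with single libraries, from 2.29% without S9CC47_R6 at 0h to 9.65% without S9CC47_R6 at 3h. In total reads, TFAP2A changed by 0.61 ± 0.0998 (adjusted p = 7.32e-08), while TFAP2B, at 0.19 ± 0.0785, missed the threshold (adjusted p = 0.102), with 15.0% of all genes called and 7.11% called higher (3.64 to 16.9% called when single libraries were left out). With the culture as a block the TFAP2B change in total reads was 0.23 and was called (adjusted p = 0.0836). TFAP2C had log2 fold changes of -0.39 in T>C reads and -0.31 in total reads, and neither was called (adjusted p = 0.877 and 0.767).

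The TFAP2A change at 24h in T>C reads ranged from 0.57 to 0.80 over 24 alternatives and was called in 23 of them. The exception was the fit without the culture S9CC47_R6 (0.62, adjusted p = 0.138). With the single library S9CC47_R6 at 24h left out, TFAP2A was among the genes called, as it was with each of the other libraries left out (9 of 9 fits, adjusted p of at most 3.69e-05). The TFAP2B call at 24h ended without any of the 3 cultures and in 6 of the 9 fits that left out a single library, although its log2 fold change stayed between 0.23 and 0.31.

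Between 3h and 24h, no member was called in T>C reads by DESeq2, although 2 had an unadjusted p under 0.05 and edgeR called 1, and 1.14% of all genes were called (0.540% higher). TFAP2A had a log2 fold change of 0.35 ± 0.110 (adjusted p = 0.126) and TFAP2B of 0.23 ± 0.0782 (adjusted p = 0.167). With the culture as a block both were called, at 0.51 (adjusted p = 0.00109) and 0.27 (adjusted p = 0.0559). In total reads TFAP2A was called (0.30 ± 0.106, adjusted p = 0.0837) and TFAP2B was not (0.20, adjusted p = 0.202), against 5.39% of genes called and 2.51% called higher. The block again gave both members a call, with 0.44 for TFAP2A (adjusted p = 0.00388) and 0.25 for TFAP2B (adjusted p = 0.0565). The fit without the library S9CC47_R6 at 3h moved these values in opposite ways. Its surrogate variable, a covariate estimated from the counts, was estimated anew. TFAP2A was then at 0.58 (adjusted p = 3.05e-06) and TFAP2B at 0.28 (adjusted p = 0.0165) in T>C reads, both called. In total reads TFAP2A was at -0.03 and was not called. Its normalized total reads were nevertheless higher at 24h than at 3h in S9CC13_R6 (1.19 times) and S9CC47_R5 (1.29 times). Whether the library or the new covariate moved the value was not tested. This fit also moved the share of all genes called to 14.0% in T>C reads and to 0.360% in total reads.

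**Figure D2:**
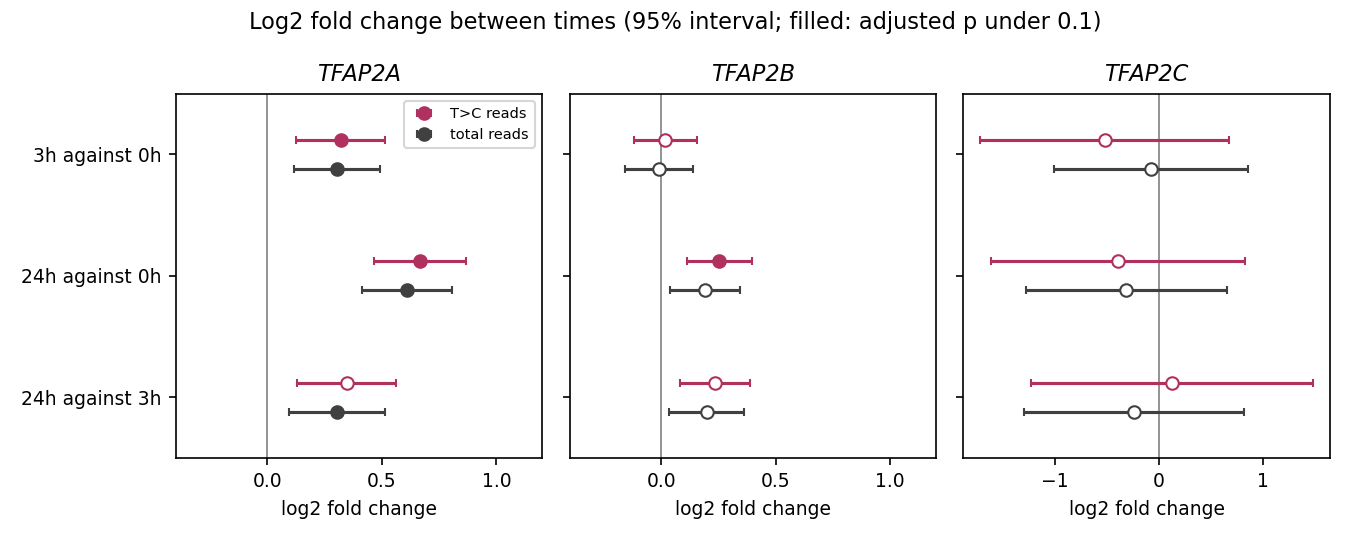
Log2 fold changes (x axis, with 95% intervals) of TFAP2A, TFAP2B and TFAP2C for the 3 contrasts of times (y axis), from T>C reads and total reads. Filled points passed an adjusted p under 0.1: TFAP2A lies right of 0 in all contrasts, TFAP2B is filled only for T>C reads at 24h against 0h (0.25), and no interval of TFAP2C excludes 0.

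Differences of TFAP2 genes between cultures were examined next. Each side of a contrast was 1 culture with 1 library per time, so p-values here rest on libraries of single cultures. They compare these cultures, not clones or batches in general. Comparing the clones within batch R6 (S9CC13_R6 against S9CC47_R6, adjusting for time), 0 of 3 tested members were called by DESeq2 or edgeR in T>C reads, where 1.32% of all genes were called, and in total reads, where 3.38% were. In each kind of read 1 member had an unadjusted p under 0.05, TFAP2A, which was lower in S9CC13_R6 (log2 fold change of -0.29 in T>C reads, adjusted p = 0.306, and of -0.27 in total reads, adjusted p = 0.240). Between the batches of clone S9CC47 (S9CC47_R5 against S9CC47_R6), 0 of 3 were called by either tool, against 0.690% of genes in T>C reads and 1.65% in total reads. Here the unadjusted p was under 0.05 for 1 member in T>C reads and for 2 in total reads. TFAP2C was the member with the widest difference between these cultures, 1.32 in T>C reads (adjusted p = 0.708) and 1.42 in total reads (adjusted p = 0.174). S9CC47_R5 was the higher. TFAP2B was at -0.16 and -0.23 in these contrasts.

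The share of a gene's reads that carry a T>C conversion depends on how fast its RNA turns over and on how many T bases the sequenced end has. With cultures in the order used above, the TFAP2A share at 0h was 49.0%, 54.3% and 49.5%, and the TFAP2B share was 32.3%, 37.8% and 32.9%. TFAP2A was thus above TFAP2B in each culture. Wilson 95% intervals, which cover counting error only, lay within 47.6 to 55.8% for TFAP2A and within 31.4 to 38.8% for TFAP2B. Whole libraries had a share of 19.1 ± 0.852% (SD, n = 3), so that TFAP2A stood at 2.66 times and TFAP2B at 1.79 times the library. TFAP2C, pooled over the 3 cultures because its reads were few, had 54 T>C reads of 77 (70.1%, Wilson 95% interval 59.2 to 79.2%), and TFAP2E had 5 of 11 (45.5%, 21.3 to 72.0%).

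Among 9729 tested genes with a mean of at least 100 total reads at 0h, TFAP2A ranked 1083rd from the top (percentile 88.9) and TFAP2B 3368th (percentile 65.4). The median share over these genes was 26.7%, with 10th and 90th percentiles of 10.6% and 52.2%. T content of the last 250 transcript bases was 36.8% for TFAP2A and 40.4% for TFAP2B, against a median of 32%. Set only against genes within 2 percentage points of the same T content, a comparison chosen after the shares were seen, TFAP2A was at percentile 85.2 of 2209 genes and TFAP2B at percentile 49.7 of 1339. No library without 4sU was analysed here, so the share that arises without labelling is unknown.

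The shares moved with those of whole libraries. TFAP2A had a share of 50.9 ± 2.90% (SD, n = 3) at 0h, 47.1 ± 6.21% at 3h and 56.2 ± 2.66% at 24h. TFAP2B had 34.3 ± 3.04%, 32.2 ± 2.17% and 37.2 ± 0.437%, and whole libraries had 19.1%, 17.9% and 20.5%. S9CC13_R6 at 3h was the lowest library for TFAP2A (40.1%), TFAP2B (29.8%) and all genes (15.9%). Divided by the library share, TFAP2A stood at 2.66, 2.63 and 2.74 and TFAP2B at 1.79, 1.81 and 1.82. None of 12 comparisons of these shares between times passed: the smallest p that 3 against 3 allows in the exact two-sided permutation test is 0.1, and the lowest adjusted p was 0.4. The TFAP2A share over the library share was higher at 24h than at 0h in 3 of 3 cultures, by 0.0814 ± 0.0366 (exact permutation p = 0.1, adjusted p = 0.4).

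**Figure D3:**
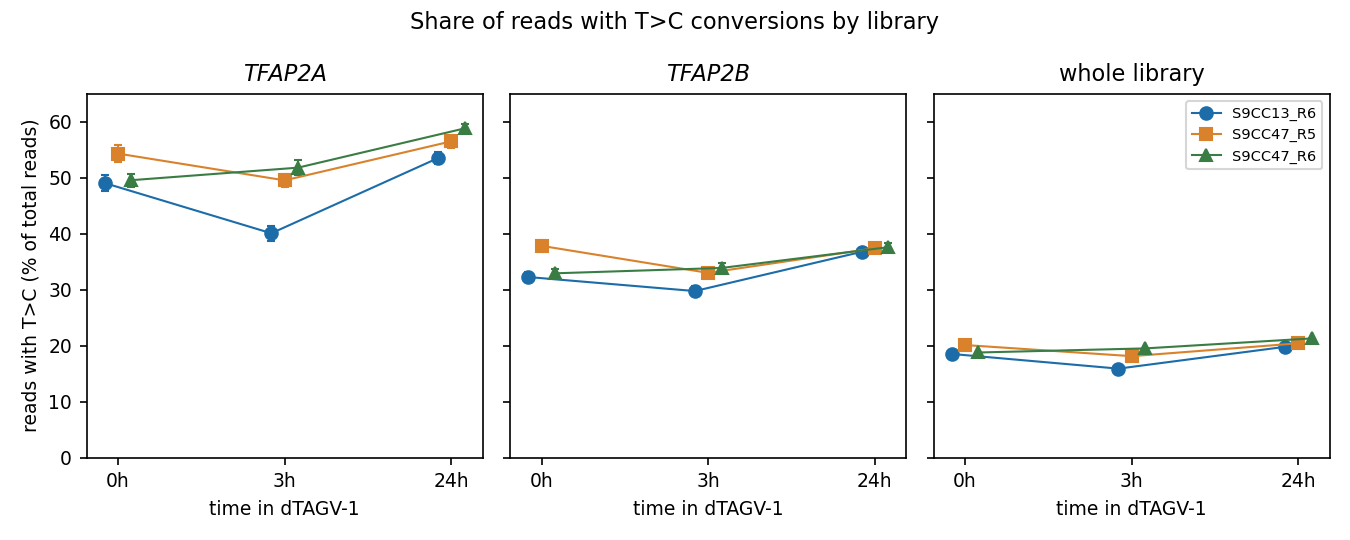
Share of reads with T>C conversions (y axis, % of total reads, from 0) for TFAP2A, TFAP2B and the whole library against time in dTAGV-1 (x axis), one line per culture, with Wilson 95% intervals for the genes. In every culture and at every time TFAP2A lies above TFAP2B and TFAP2B above the library, and S9CC13_R6 dips at 3h in all 3 panels.

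The balance of the 2 abundant members was then followed within each library. This ratio needs no library normalization and was chosen after the values were seen. TFAP2A T>C reads were 57.6%, 68.2% and 57.3% of TFAP2B T>C reads at 0h, with cultures in the same order, 68.0%, 74.9% and 74.5% at 3h, and 72.5%, 83.7% and 102.9% at 24h. Each culture moved up at each step, although S9CC13_R6 at 24h stayed below the other cultures at 3h. The difference between 24h and 0h was 25.4 ± 17.6 percentage points (exact two-sided permutation p = 0.1, the smallest possible, and exact sign-flip p = 0.25 over 3 cultures, adjusted over 6 comparisons to 0.2 and 0.3). In total reads the ratio went from 41.2 ± 5.49% at 0h through 49.7 ± 0.889% to 57.0 ± 8.09%, a difference of 15.9 ± 10.5 points between 24h and 0h in 3 of 3 cultures (exact permutation p = 0.1). From 3h to 24h it was higher in 2 of 3 cultures, and S9CC13_R6 went from 50.5% to 49.9%. With 3 cultures neither test can pass a threshold of 0.05.

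**Figure D4:**
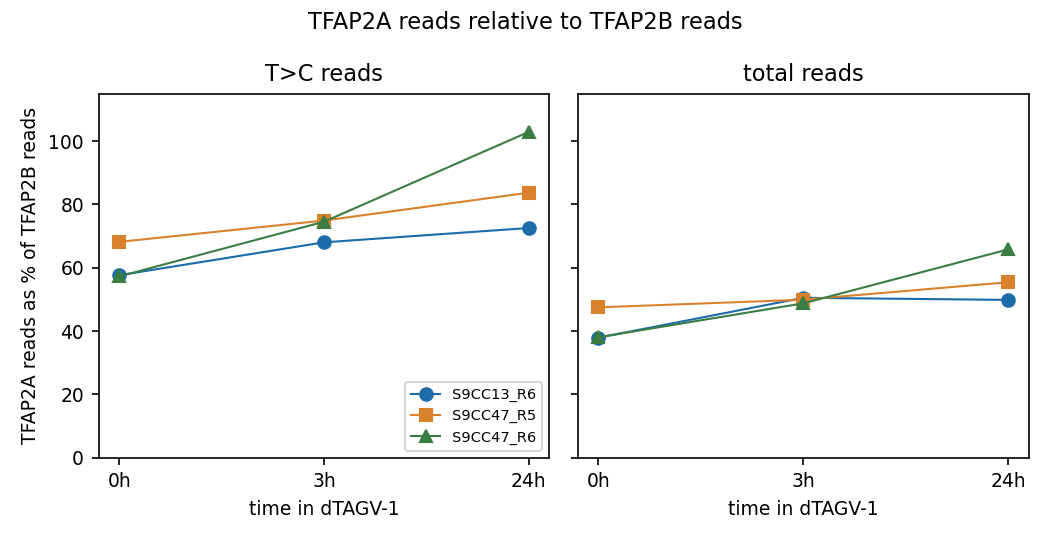
TFAP2A reads as a percent of TFAP2B reads (y axis, from 0) in each library against time in dTAGV-1 (x axis), with T>C reads on the left and total reads on the right and one line per culture. All 3 cultures are higher at 24h than at 0h, and S9CC47_R6 reaches 102.9% in T>C reads.

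Genes of the AP-2 pathway were described next, in lists drawn up by role but with earlier results of these data known. Their counts are descriptions, and enrichment of a list was not tested. Of 10 cofactors and modifiers of AP-2 proteins, among them the CITED coactivators, the acetyltransferases EP300 and CREBBP, and the KCTD repressors, all 10 were tested and 0 were called in T>C reads at 3h by DESeq2. At 24h, where 4.98% of all genes were called, 1 of the 10 was, CITED2, a coactivator that AP-2 proteins recruit together with EP300. Its normalized T>C reads had a mean of 41.2 ± 8.84 (SD, n = 3) at 0h, 41.8 ± 23.5 at 3h and 150 ± 49.2 at 24h, a log2 fold change of 1.42 ± 0.283 (adjusted p = 4.91e-05) in 3 of 3 cultures. The call was lost without any of the 3 cultures and kept in the other 21 of 24 alternatives. With the library S9CC47_R6 at 3h left out, 3 cofactors were called at 24h in place of 1. The median log2 fold change of the list at 24h was -0.02, against 0.00 over all genes. In total reads at 24h, where 15.0% of all genes were called, 2 of the 10 were, CITED2 (1.56) higher and YEATS4 (-0.22, adjusted p = 0.0637), a chromatin reader, lower. The YEATS4 call was lost without any of the 3 cultures and made in 6 of 23 alternatives.

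Of 26 other neural crest factors 22 were tested in T>C reads, and FOXD3, SOX10, DLX5 and DLX6 did not pass the filter. At 3h 4 were called, 3 higher and 1 lower, next to 1.79% of all genes. The median log2 fold change was -0.13 for the list and -0.01 for all genes. Single genes of the list ran from -2.86, which was not called, to 0.77. At 24h 10 were called, 9 higher and 1 lower, next to 4.98% of all genes (2.38% higher), and the medians were 0.28 and 0.00. SOX9 itself, the degraded factor, rose at the RNA level, by 0.77 ± 0.0809 on the log2 scale at 3h and 1.15 ± 0.0843 at 24h (adjusted p = 7.28e-39). MSX1, a homeobox factor downstream of BMP signals, rose by 0.70 at 3h and by 1.20 ± 0.0779 at 24h (adjusted p = 7.2e-50). The ID genes, which encode inhibitors of basic helix-loop-helix factors, rose at 24h, by 1.14 for ID1, 1.10 for ID2 and 0.51 for ID3. So did PAX3 (0.51), a paired-box specifier of the crest border, and TWIST1 (0.44), a regulator of crest mesenchyme. SOX5, which encodes a SOX factor without an activation domain, fell, by 0.85 at 3h and by 1.26 at 24h on the log2 scale. The count of 10 calls at 24h depended on the cultures: it was 3 without S9CC13_R6, 7 without S9CC47_R5, 5 without S9CC47_R6 and 8 with the culture as a block. In DESeq2 the block did not call ID3 (0.71, adjusted p = 0.151), SNAI1 (1.13, adjusted p = 0.165) or MSX2 (0.92, adjusted p = 0.202). Its 8 calls were thus not all among the 10. MSX1 and SOX9 were called at 24h with any culture left out. ID1, ID2 and ID3 lost their calls without S9CC13_R6 (0.60, 0.86 and 0.29), SOX5 and TWIST1 without S9CC13_R6 (-1.13 and 0.39) or S9CC47_R6 (-1.39 and 0.17), and PAX3 without any of the 3. At 3h the calls of SOX9 and SOX5 were lost without S9CC47_R6 (0.78 and -0.91), and that of SOX5 also without S9CC13_R6 (-0.74). On the same scale TFAP2A, at 0.67, lay above TWIST1 and PAX3 and below MSX1, SOX9, ID1 and ID2, and these differences were not tested. In total reads 21 crest factors were tested, and 6 were called at 3h, 3 higher and 3 lower, against 1.89% of all genes. At 24h 11 of the 21 were called in total reads, 10 higher and 1 lower, against 15.0% of all genes.

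Among genes described as AP-2 targets 6 were tested, whereas ESR1, MCAM, CDH1, KRT14 and HOXA2 did not pass the filter. ERBB3 and IGFBP5 (2 of 6) were called at both times in T>C reads, in opposite directions, where 1.79% of all genes were called at 3h and 4.98% at 24h. ERBB3, a neuregulin receptor of the crest and its glial lineages, started from 44, 32 and 48 T>C reads at 0h. It had 9, 4 and 3 at 3h, followed by 3, 2 and 0 at 24h. Its log2 fold change was -3.28 ± 0.705 at 3h (adjusted p = 0.000466) and -4.26 ± 0.861 at 24h (adjusted p = 7.15e-05). In total reads, where its mean fell from 254 to 125 at 3h and 10.7 normalized reads at 24h, the log2 fold changes were -1.06 and -4.51. IGFBP5, an extracellular binding protein of insulin-like growth factors, rose by 1.19 ± 0.379 at 3h (adjusted p = 0.0980) and 1.69 ± 0.392 at 24h (adjusted p = 0.00110). Its calls were lost without any of the 3 cultures, and that at 3h also with the culture as a block (1.18, adjusted p = 0.120). The T>C calls of ERBB3 were lost without S9CC47_R6 (-2.69 at 3h and -4.43 at 24h) and at 3h also without S9CC47_R5 (-2.86), and it did not pass the filter without S9CC13_R6. In total reads ERBB3 kept its call at 24h in 23 of 23 alternatives, also with any culture left out. At 3h it kept the call in 20 of 23, and in 1 of 3 fits without a culture. KIT, EGFR, ERBB2 and CDKN1A were the other tested genes and were not called in T>C reads at either time. In total reads at 24h ERBB2, a partner of ERBB3, was also called lower (-0.62 ± 0.162, adjusted p = 0.00289), a call lost without any of the 3 cultures, so that 3 of 6 were called, against 15.0% of all genes.

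**Figure D5:**
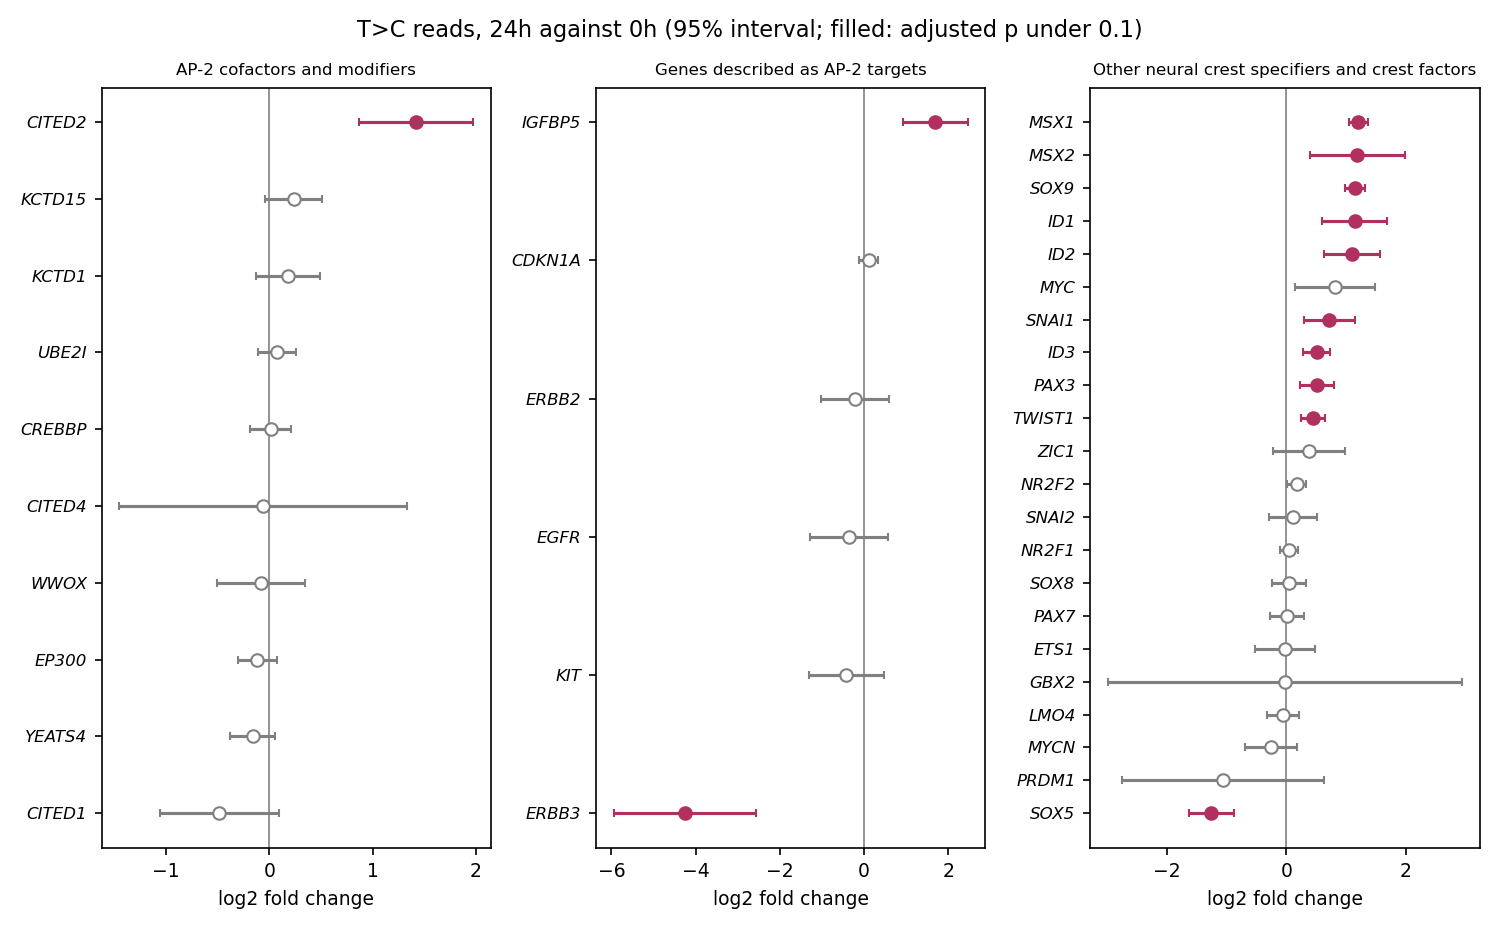
Log2 fold changes of T>C reads between 0h and 24h (x axes, with 95% intervals) for the tested genes of 3 lists (y axes): AP-2 cofactors, genes described as AP-2 targets and other neural crest factors. Filled points were called at an adjusted p under 0.1: 1 of 10 cofactors (CITED2), 2 of 6 targets (IGFBP5 higher, ERBB3 lower) and 10 of 22 crest factors, 9 of them higher.

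Over the 9 libraries, the genes whose log2 normalized T>C reads tracked TFAP2A most closely were TIPARP, an ADP-ribosyltransferase (Pearson r of 0.985), FZD7, a Wnt receptor (0.961), and GNAS, the stimulatory G protein alpha subunit (0.957), out of 8676 genes that averaged 50 or more normalized T>C reads. TFAP2B ranked 212th for TFAP2A (r of 0.836) and SOX9 358th (0.795). Nearest to TFAP2B were GABPA, an ETS factor (0.971), the adhesion protein FLRT3 (0.952) and PI15 (0.939), and TFAP2A ranked 96th. These values describe 9 points that share times, cultures and libraries. In the contrast of 24h with 0h, TIPARP, FZD7 and GNAS had log2 fold changes of 0.72, 0.79 and 0.62, next to 0.67 for TFAP2A, whereas FLRT3 (0.93) and PI15 (0.92) changed by more than the 0.25 of TFAP2B. GABPA was at 0.85 and was not called (adjusted p = 0.144 from DESeq2).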

How the data were processed

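SLAM-seq libraries (3 times, 3 cultures) were read at the 3′ end. Per the authors' methods, adapters and poly(A) were removed from read 1, which slamdunk mapped and counted, and the submitters' processing notes name hg38. They deposited whole-number counts per gene symbol, not normalized, in one table of total reads and one of T>C reads. Counts were tested with DESeq2 1.42.0 in R 4.3.3 (Wald test, batch and 1 surrogate variable from sva 3.50.0 as covariates) on protein-coding genes that reached 1 CPM in 3 or more libraries, with Benjamini-Hochberg adjustment over all of them and a threshold of 0.1. edgeR 4.0.16 was an alternative. Cultures were compared with time as a covariate. Each culture, a clone in a batch, recurs at every time in the titles, so cultures were also used as a block: same-culture libraries deviated together with a mean r of 0.131 in T>C reads and 0.273 in total reads over 9 pairs. Libraries of a group differed beyond counting noise (chi-square per degree of freedom of at least 4.69). Scripts were tested on simulated data. The members and gene lists were chosen with earlier results of these data known. From each list, up to 8 genes called in T>C reads at 3h or 24h against 0h are named, by smallest adjusted p, with all members, crest markers and the 3 genes most like TFAP2A and TFAP2B. Other genes were named to complete a count. An item of the AP-2 target list is not reported here.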

Additional observations from a re-analysis of the deposited data

Results flagged for a closer look

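TFAP2A in total reads had a log2 fold change of 0.30 between 24h and 3h (DESeq2, adjusted p = 0.0837), a difference between its effects at 3h and at 24h that passed the threshold. Normalized total reads were higher at 24h than at 3h in 3 of 3 cultures, by 1.19, 1.29 and 1.62 times in S9CC13_R6, S9CC47_R5 and S9CC47_R6. Most alternatives lost the call: it was kept in 9 of 23, and in 2 of 9 fits without a single library, edgeR did not make it, and the value ran from -0.03 to 0.46.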

How the results depend on the processing

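TFAP2A at 24h against 0h kept its call in 23 of 24 alternatives for T>C reads and in 23 of 23 for total reads, and depth limits TFAP2C, TFAP2D and TFAP2E. The single libraries left out in turn were chosen after seeing the data. For T>C reads at 3h (1 member called), 0 were called with no surrogate variable, the replicate block (with or without a surrogate variable), no covariates, only the 6 samples compared, size factors from total reads (which moved the median of all genes from -0.01 to -0.10) or an adjusted p under 0.05, and 0 to 1 with libraries or cultures left out. For T>C reads at 24h (2 called), the latter gave 0 to 2. For 24h against 3h in T>C reads (0 called), edgeR, no covariates and no CPM filter gave 1, no surrogate variable, the replicate block and size factors from total reads 2, and leave-outs 0 to 2. In total reads at 3h (1 called), edgeR, no surrogate variable, both replicate blocks, no covariates, no CPM filter and an adjusted p under 0.05 gave 0, and leave-outs 0 to 1. In total reads at 24h (1 called), both replicate blocks and no CPM filter gave 2, and leave-outs 1 to 2. In total reads at 24h against 3h (1 called), edgeR, the 6 samples and an adjusted p under 0.05 gave 0, the replicate block 2, and leave-outs 0 to 1, while TFAP2B (0.29) was called in place of TFAP2A (0.36, adjusted p = 0.185) with block plus surrogate variable. Between the clones in total reads (0 called), leaving out the 0h libraries gave 1. The replicate block changed no other call of a member. Signs turned mostly for small or thinly counted changes. TFAP2B at 3h gave -0.0689 with size factors from total reads and -0.00462 to 0.0469 with leave-outs in T>C reads, -0.0734 to 0.0487 with leave-outs in total reads, and a T>C share over the library share that rose by 0.0174. TFAP2C in T>C reads gave -0.999 to 0.45 at 24h with leave-outs, and at 24h against 3h -0.47 with the block and a surrogate variable, -0.0230 with no covariates and -0.59 to 1.23 with leave-outs. Between the clones it gave -0.0653 without the 24h libraries and at most 0.67. TFAP2C in total reads gave 0.0383 with the block and a surrogate variable, 0.0646 with no covariates and -0.29 to 0.18 with leave-outs at 3h, -0.81 to 0.20 at 24h and -0.77 to 0.28 at 24h against 3h. TFAP2A in total reads at 24h against 3h was neither thinly counted nor near 0 (0.30, called). It gave -0.0266 to 0.40 with leave-outs, and only the fit without S9CC47_R6 at 3h was below 0. TFAP2C did not pass the filter in total reads without replicate 2 and has no value there. The cause of these changes was not tested.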
